A study of Homo sapiens with 48 samples.

Results

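The ZNF-numbered genes, whose symbols are ZNF followed by a number, form a large family of human zinc finger genes. They were taken here as the rows of the gene count table with a symbol of that form and at least 10000 counts in total over 48 libraries. This left 264 of the 466 ZNF-numbered genes listed and 264 of the 9991 genes tested. The other 202 fell under the minimum, with ZNF784 (9687 counts) and ZNF383 (9621) just outside and ZNF708 (10085) and ZNF14 (10218) just inside.

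Most of these genes encode transcription factors that read DNA through an array of C2H2 zinc fingers. Many also carry a KRAB domain, which recruits the corepressor TRIM28 and, through it, the histone methyltransferase SETDB1, HP1 proteins and the HUSH complex, and so silences retroelements and other repeats. The remainder include general transcription and chromatin factors, and some members that act on RNA, ribosomes or the mitotic spindle. Many lie in clusters of similar copies on chromosome 19, so reads can be shared between near-identical members.

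RNA-seq was analysed from IMR90 ER:RAS cells, human lung fibroblasts of a single line carrying RAS G12V fused to the oestrogen receptor. Cells received the inducer 4-hydroxytamoxifen (4OHT), which switches RAS on and drives senescence, or the solvent DMSO for 6 days. They were then transfected with siRNAs and collected 2 days later in 0.5% serum. The 6 groups of 8 libraries were DMSO siNT, 4OHT siNT, DMSO siSF3B1, 4OHT siSF3B1, DMSO siRBM39 and 4OHT siRBM39, each from 2 siRNAs with 4 replicates. The non-targeting siRNAs were siNT1 and siNT2, those against SF3B1 were siSF3B1-13 and siSF3B1-16, and those against RBM39 were siRBM39-06 and siRBM39-08. SF3B1 is the U2 snRNP protein that clamps the branch point of introns, and RBM39 is a U2AF-related splicing factor. In 4 libraries the title names siNT2 while the treatment label names siNT1, which leaves them in 4OHT siNT either way. Results below with siNT1 or siNT2 alone follow the titles, and the treatment labels would not give that split in 4OHT. The labels do not say whether replicates were separate cultures. The methods of the study describe replicates of its cell culture work in general as independent experiments. For its knockdown RNA-seq they state fewer replicates than the labels number.

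Libraries held 31467221 to 52734636 counts. SF3B1 fell to 0.0914-fold in DMSO siSF3B1 and 0.0831-fold in 4OHT siSF3B1, and RBM39 to 0.161-fold and 0.135-fold with siRBM39. RBM39 also rose with siSF3B1, by 0.83 (DMSO) and 1.06 (4OHT) on the log2 scale, and fell by 0.50 with RAS. Of 10 fibroblast markers 9 fell with RAS, and their summed level (in CPM, counts scaled to a common library size) went from 53400 to 60500 in DMSO siNT to 14800 to 15600 in 4OHT siNT. Of 6 senescence genes tested 5 rose and LMNB1, a lamin lost in senescence, fell. Summed epithelial markers were 20.2 to 29.8 CPM in DMSO siNT and 8.73 to 12.2 in 4OHT siNT, and endothelial markers 1.57 to 2.19 and 3.45 to 4.45. The epithelial genes CDH1 and EPCAM stayed under 1 CPM (median of each siNT group), as did the leukocyte genes PTPRC, CD3E and LYZ and the endothelial genes CDH5 and KDR. The epithelial genes KRT5, KRT8 and KRT19 and the endothelial gene VWF did not. KRT8, the only epithelial marker tested, had log2 fold changes of -1.306 with RAS and 0.985 with siRBM39 in 4OHT, both called. CD68, a lysosomal protein used as a macrophage marker, was the one leukocyte marker tested, and it rose with RAS by 0.91 on the log2 scale (SE 0.0629, adjusted p = 5.75e-18). The part of the marker changes in the results below was not tested. In these bulk samples fewer cells of a type and less RNA per cell cannot be told apart. Replicate 4 of siRBM39-08 in 4OHT stood apart from its group, and its epithelial markers reached 113 CPM.

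The members were low in level. The median of their mean levels was 14.3 CPM, against 39 CPM over all genes tested. Per length, in cRPKM, the members ran from 0.924 to 41.1 with a median of 4.93, against 12.7 for all genes. The highest on that scale was ZNF622, a factor of large ribosomal subunit maturation, at 41.1 cRPKM, followed by ZNF703, a transcriptional repressor, at 39.3 cRPKM. Of 261 members with a position in GRCh37, 104 lay on chromosome 19, 24 on chromosome 16 and 17 on chromosome 7. Of 259 with a coding transcript, 127 held a KRAB-like sequence pattern, an approximate match that misses some known KRAB genes. The median number of C2H2 fingers was 10, with a range from 0 to 36. The GC content of their transcripts had a median of 44.9%, against 47.8% for all genes tested.

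Splicing of the members was read from the per cent spliced-in index (PSI), the share of transcripts that include an exon or keep an intron. The stretches below show exons and introns whose changes in PSI are described later. Whether their sequence bears on those changes was not tested. They were read from GRCh37, in the direction of transcription. Exon bases are in capitals and intron bases in lower case, so each change of case marks a splice site.
ZNF207 48-base exon, chr17:30688457-30688544, plus strand: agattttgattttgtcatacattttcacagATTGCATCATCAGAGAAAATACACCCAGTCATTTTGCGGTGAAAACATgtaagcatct
ZNF638 105-base exon, chr2:71655647-71655791, plus strand: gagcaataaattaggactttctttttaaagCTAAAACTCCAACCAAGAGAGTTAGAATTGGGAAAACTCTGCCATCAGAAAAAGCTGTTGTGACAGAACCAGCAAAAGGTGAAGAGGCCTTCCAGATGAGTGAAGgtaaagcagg
ZNF263 117-base exon, chr16:3338424-3338580, plus strand: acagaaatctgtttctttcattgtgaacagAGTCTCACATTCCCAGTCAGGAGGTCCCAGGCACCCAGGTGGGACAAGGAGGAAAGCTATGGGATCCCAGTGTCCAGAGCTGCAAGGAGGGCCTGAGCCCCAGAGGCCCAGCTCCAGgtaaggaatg
ZNF451 187-base exon, chr6:57018629-57018855, plus strand: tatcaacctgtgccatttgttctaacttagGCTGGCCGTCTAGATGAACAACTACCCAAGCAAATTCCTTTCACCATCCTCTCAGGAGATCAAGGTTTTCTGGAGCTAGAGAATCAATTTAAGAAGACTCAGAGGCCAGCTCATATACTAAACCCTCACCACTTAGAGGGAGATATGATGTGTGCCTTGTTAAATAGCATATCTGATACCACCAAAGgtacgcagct
ZNF335 231-base intron with 10 exon bases on each side, chr20:44578198-44578448, minus strand: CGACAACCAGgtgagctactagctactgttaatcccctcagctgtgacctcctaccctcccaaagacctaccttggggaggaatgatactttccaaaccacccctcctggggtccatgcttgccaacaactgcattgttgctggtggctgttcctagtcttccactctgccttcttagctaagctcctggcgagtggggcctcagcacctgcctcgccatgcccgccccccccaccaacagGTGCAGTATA
ZNF740, last part of its 313-base intron, chr12:53580085-53580184, plus strand: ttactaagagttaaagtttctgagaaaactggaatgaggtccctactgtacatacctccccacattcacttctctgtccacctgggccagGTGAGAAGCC
All 6 introns shown end in AG, and every donor site shown begins with GT. Their last 30 intron bases held between 14 (ZNF638) and 21 (ZNF335) pyrimidines.

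Members of the family were lower with RAS and higher without SF3B1. The mean log2(CPM + 0.5) of the 264 members averaged 4.04 with an SD of 0.026 over the 8 DMSO siNT libraries. It averaged 3.89 ± 0.011 in 4OHT siNT, where no library reached the lowest of DMSO siNT (highest 3.90 against lowest 4.00). In DMSO siSF3B1 it was 4.21 ± 0.025 and in 4OHT siSF3B1 4.23 ± 0.033, above all siNT libraries (lowest 4.18 and 4.20). In DMSO siRBM39 it was 4.08 ± 0.050 and in 4OHT siRBM39 4.01 ± 0.067, between the levels of siNT and siSF3B1. The siRBM39 libraries from DMSO overlapped with DMSO siNT, while 7 of 8 from 4OHT lay above 4OHT siNT. The eighth, replicate 4 of siRBM39-08, was the lowest of all libraries at 3.85.

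**Figure D1:**
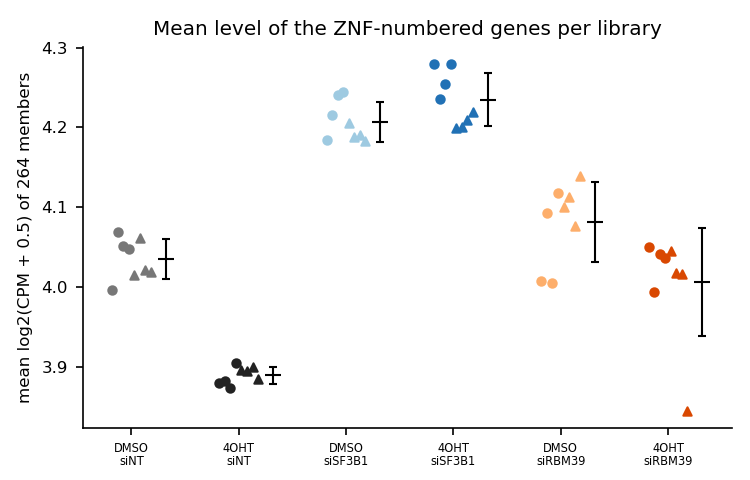
Mean log2(CPM + 0.5) of the 264 ZNF-numbered genes in each of 48 libraries, by group; circles are the first siRNA of a target (siNT1, siSF3B1-13, siRBM39-06), triangles the second, and the bars give mean ± SD (n = 8). The siSF3B1 libraries lie highest (4.18 and above), 4OHT siNT lies between 3.87 and 3.90, and replicate 4 of siRBM39-08 stands apart at 3.85.

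The first comparison, of 4OHT siNT with DMSO siNT, asked how the members change in RAS-induced senescence. By edgeR's quasi-likelihood test 73 members rose and 122 fell, or 27.7% and 46.2%. Among all genes tested 39% rose and 39.1% fell. The median log2 fold change of the members was -0.14, against 0.00 over all genes. At least 2-fold changes were less frequent among members than among all genes in either direction. Such a rise was seen in 6 members (2.27%, against 7.61% of all genes) and such a fall in 17 (6.44%, against 10.9%).

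ZNF300 showed the largest fall. It ran from 8.43 to 12.1 CPM (median 10.8) in DMSO siNT and from 1.39 to 2.30 (median 1.88) in 4OHT siNT, with a log2 fold change of -2.49 (SE 0.097, adjusted p = 1.28e-27). ZNF362 went from a median of 46.4 CPM (44.7 to 48.8) to 9.50 (8.27 to 10.2), with a log2 fold change of -2.32 (SE 0.081). ZNF395, a factor induced by hypoxia, went from 24.3 (20.4 to 26.7) to 6.19 CPM (4.71 to 7.09), a log2 fold change of -1.99 (SE 0.097). ZNF608 and ZNF785 fell by 1.72 and 1.54 on the log2 scale. These genes were picked from called members whose libraries did not overlap. In this direction 37.9% of members and 34.8% of all genes tested met that.

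Among the members that rose, ZNF792 had the largest change, from a median of 4.08 CPM (3.92 to 4.92) to 14.5 (13.4 to 15.3), with a log2 fold change of 1.78 (SE 0.099, adjusted p = 1.91e-21). ZNF438 rose from 4.84 CPM (4.50 to 5.71) to 14.2 (12.7 to 14.7), by 1.47 on the log2 scale (SE 0.072). ZNF267 rose by 1.15, ZNF121 by 1.14 and ZNF259 by 1.07 log2 units. The row named ZNF259 carries the identifier of ZPR1, a zinc finger protein that helps fold a translation elongation factor. Its 8 DMSO siNT libraries held 31.3 to 37.9 CPM and its 8 4OHT siNT libraries 66.4 to 74.5. The members named for a rise were picked in the same way. A called rise without overlap was seen in 22.3% of members and 34.9% of all genes tested.

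Loss of SF3B1 in DMSO-treated cells raised 144 members and lowered 53, or 54.5% and 20.1%. Over all genes tested 36.5% rose and 36.2% fell. The median log2 fold change of the members was 0.23, against 0.02 over all genes. At least 2-fold, 7 members rose (2.65%, against 1.67% of all genes) and 5 fell (1.89%, against 5.92%).

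ZNF557 (ENSG00000130544) rose most. Its range was 8.09 to 12 CPM (median 10.4) in DMSO siNT and 28.3 to 41.9 (median 33.9) in DMSO siSF3B1, a log2 fold change of 1.73 (SE 0.101, adjusted p = 3.44e-20). The level was 39.6 ± 2.03 CPM (SD, n = 4) with siSF3B1-13 and 29 ± 0.911 with siSF3B1-16, so each siRNA gave the change. ZNF263 (ENSG00000006194), a C2H2 factor with a SCAN and a KRAB domain, went from a median of 25.6 CPM (21.6 to 28.2) to 74.9 (66.1 to 86.5), a log2 fold change of 1.56 (SE 0.072). ZNF473, which binds the U7 snRNP in 3′-end processing of histone mRNAs, went from 7.22 CPM (6.04 to 7.53) to 16.9 (15.1 to 18.2), a log2 fold change of 1.25 (SE 0.061). ZNF335, a subunit of H3K4 methyltransferase complexes, went from 26.9 CPM (23.9 to 31.1) to 61.2 (56.5 to 64.7), a log2 fold change of 1.18 (SE 0.047). ZNF844 rose by 1.14 log2 units.

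Of the members that fell, ZNF771 changed most, from a median of 8.59 CPM (7.60 to 9.66) to 2.75 (2.07 to 3.45), a log2 fold change of -1.68 (SE 0.152, adjusted p = 1.35e-13). ZNF772 went from 18 CPM (15.8 to 19) to 6.15 (4.79 to 6.64), with a log2 fold change of -1.60 (SE 0.114). ZNF655 went from 28.7 CPM (25.1 to 30.4) to 11.7 (9.93 to 12.3), with a log2 fold change of -1.32 (SE 0.1). ZNF302 and ZNF248 fell by 1.18 and 1.14. Each of these genes was picked from called members without overlap of libraries. In this direction 13.3% of members and 27.9% of all genes tested met that.

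In 4OHT-treated cells the same knockdown raised 175 members (66.3%) and lowered 42 (15.9%). Among all genes tested 39.4% rose and 37.6% fell. The median log2 fold change of the members was 0.39, against 0.03 over all genes. At least 2-fold, 26 members rose (9.85%, against 3.44% of all genes) and 7 fell (2.65%, against 8.12%). In DMSO and in 4OHT, whose libraries are separate, 137 members (51.9%) rose both times, against 29.3% of all genes tested. Both times 30 members (11.4%) fell, against 29.1% of all genes, and 6 members (2.27%, against 3.56%) were called in opposite directions.

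ZNF557 again rose most, from a median of 7.54 CPM (5.92 to 8.39) to 43.5 (35 to 53.4), a log2 fold change of 2.55 (SE 0.104, adjusted p = 3.61e-26). ZNF844 went from 4.93 CPM (4.04 to 5.45) to 17.9 (14.1 to 21.4), a log2 fold change of 1.86 (SE 0.106). ZNF263 went from 28 CPM (25.6 to 29.2) to 89.6 (77.2 to 107), a log2 fold change of 1.71 (SE 0.072). ZNF564 rose by 1.5 and ZNF74 by 1.35 log2 units. All 5 were picked from called members without overlap of libraries. In this direction 55.7% of members and 34.3% of all genes tested met that.

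ZNF771 fell most in 4OHT, from 8.97 CPM (8.49 to 9.41) to 2.10 (1.74 to 2.46), with a log2 fold change of -2.10 (SE 0.157). ZNF655 went from 15.7 CPM (14.4 to 18.1) to 4.25 (3.79 to 5.17), with a log2 fold change of -1.89 (SE 0.107). ZNF772 fell by 1.28, ZNF469 by 1.26 and ZNF862 by 1.04 on the log2 scale. ZNF469, a gene of the extracellular matrix disorder brittle cornea syndrome, ran from 167 to 177 CPM in 4OHT siNT and from 61.4 to 83.0 in 4OHT siSF3B1.

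**Figure D2:**
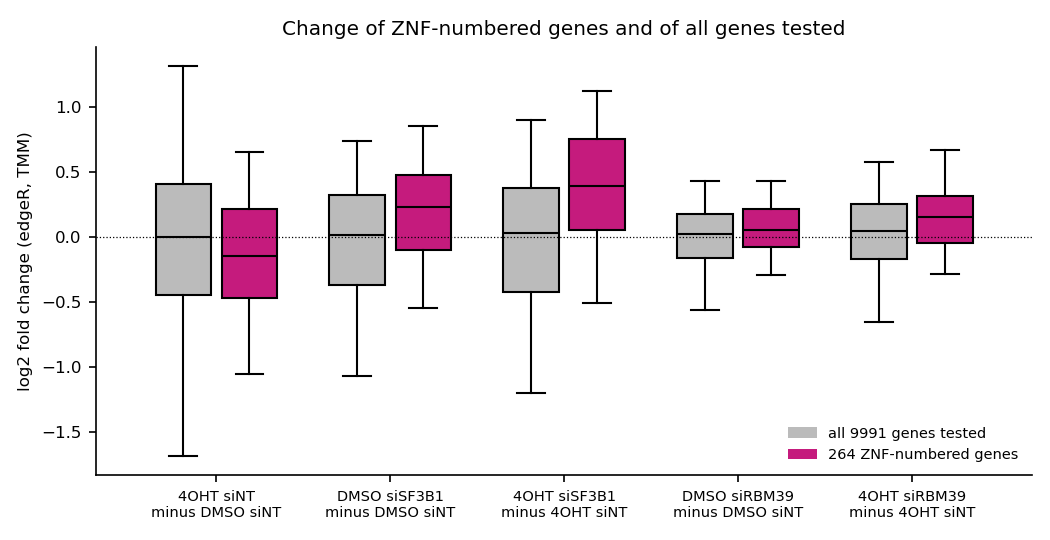
Log2 fold changes from edgeR for all 9991 genes tested (grey) and the 264 ZNF-numbered genes (magenta) in the 5 comparisons with siNT; boxes give the quartiles and median, and whiskers the 5th and 95th percentiles of genes. The medians of the members lie at -0.14 with RAS, 0.23 and 0.39 with siSF3B1, and 0.05 and 0.15 with siRBM39.

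Knockdown of RBM39 moved fewer members. In DMSO 76 rose and 32 fell, or 28.8% and 12.1%. Over all genes tested 23.9% rose and 22.2% fell, and the median was 0.05 for the members and 0.02 for all genes. With siRBM39-06 alone 85 members were higher and 64 lower, beside 32.2% and 31.1% of all genes, and the share higher was then 32.2% of members as well. In 4OHT 114 members rose and 27 fell, or 43.2% and 10.2%. Of all genes tested 32.2% rose and 24.3% fell, and the medians were 0.15 and 0.05. Without replicate 4 of siRBM39-08 in 4OHT the members called were 128 higher and 27 lower, against 33.1% and 27.1% of all genes. In both treatments 64 members (24.2%) rose and 17 (6.44%) fell, against 17.6% and 16% of all genes.

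ZNF557 rose most here as well, to 33.4 CPM (29.8 to 36.2) in DMSO siRBM39, a log2 fold change of 1.68 (SE 0.101, adjusted p = 6.17e-19), and to 29.1 (25.2 to 40.1) in 4OHT siRBM39, a log2 fold change of 2.01 (SE 0.103). The siSF3B1 and siRBM39 comparisons within a treatment share their siNT libraries. The other members that rose did so by less: ZNF544 by 0.64, ZNF692 by 0.61, ZNF215 by 0.59 and ZNF561 by 0.52 log2 units in DMSO. In 4OHT they were ZNF362 (0.97), ZNF841 (0.94), ZNF300 (0.85) and ZNF580 (0.81). ZNF580 rested in part on replicate 4 of siRBM39-08, at 83.7 CPM against 30.4 in the lowest library, and its log2 fold change was 0.56 without it.

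ZNF251 showed the largest fall. It went from a median of 26.8 CPM (21.8 to 31.3) to 12.2 (11 to 12.7) in DMSO, a log2 fold change of -1.15 (SE 0.057, adjusted p = 4.56e-22). In 4OHT it went from 22.7 CPM (20.7 to 24.4) to 5.85 (5.17 to 6.86), a log2 fold change of -1.94 (SE 0.059). The siRNAs gave 5.79 ± 0.747 (siRBM39-06) and 6.05 ± 0.560 CPM (siRBM39-08, SD, n = 4 each) in 4OHT. ZNF772 fell by 1.09 in DMSO and by 1.26 in 4OHT, and ZNF655 by 0.70 and 0.96. ZNF451, a SUMO E3 ligase, fell by 0.76 and 0.74 log2 units, while with siSF3B1 it rose by 0.86 and 0.70. ZNF254 fell by 0.67 in DMSO, and ZNF469 by 0.84 in 4OHT.

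**Figure D3:**
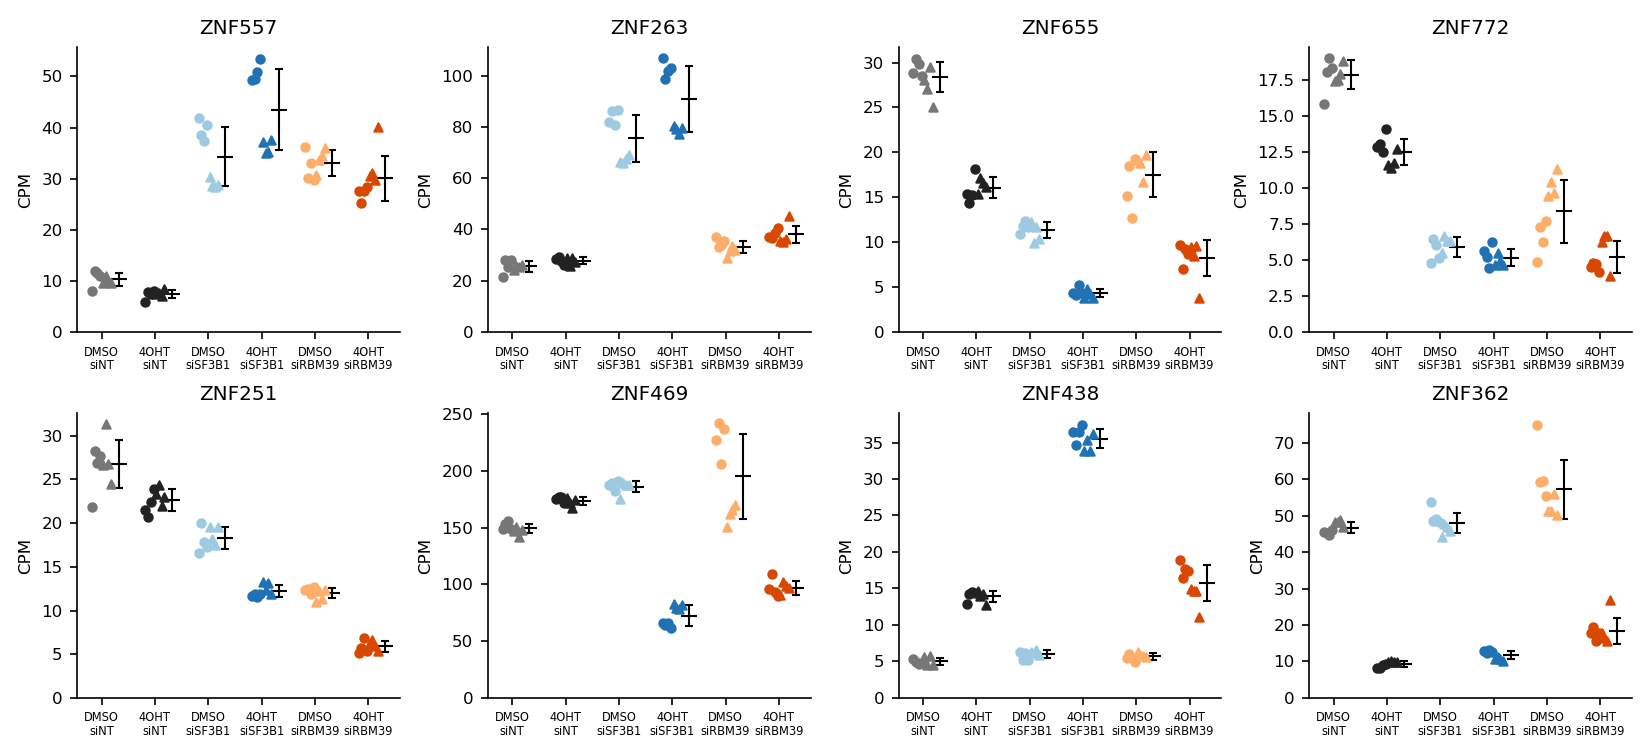
CPM of 8 members in each of 48 libraries, by group; circles are the first siRNA of a target, triangles the second, and bars give mean ± SD (n = 8). ZNF557 is higher with both knockdowns and ZNF251 is lowest in 4OHT siRBM39 (5.17 to 6.86 CPM), while ZNF469 is lower with either knockdown in 4OHT (medians of 72.1 and 96.3 against 174 CPM).

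A direct comparison of the knockdowns gave 131 members higher and 54 lower in DMSO siSF3B1 than in DMSO siRBM39. Over all genes tested 33.6% were higher and 34.1% lower. In 4OHT it gave 154 higher and 49 lower, against 33.7% and 37.7% of all genes. The median differences of the members were 0.16 and 0.28 log2 units.

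Whether a knockdown acted differently in 4OHT than in DMSO was tested as the difference of the log2 fold changes. For siSF3B1 the effect was more positive in 4OHT in 98 members (37.1%) and more negative in 15 (5.68%). Of all genes tested 17.9% were more positive and 19.9% more negative. The median difference was 0.19 for the members and -0.01 for all genes. For siRBM39 it was more positive in 21 members and more negative in 5, against 7.28% and 6.87% of all genes, and without replicate 4 of siRBM39-08 in 4OHT the members numbered 48 and 8, against 13.1% and 11.9% of all genes in that setting.

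ZNF469 had the most negative difference with both knockdowns. In 4OHT its median was 174 CPM with siNT, 72.1 with siSF3B1 and 96.3 with siRBM39. In DMSO it rose with either knockdown (log2 fold changes of 0.32 and 0.38). The differences were -1.58 (SE 0.1, adjusted p = 2.12e-17) for siSF3B1 and -1.23 (SE 0.099, adjusted p = 6.5e-13) for siRBM39. The siRBM39 siRNAs were unlike in DMSO, at 228 ± 15.8 CPM (siRBM39-06) and 162 ± 8.12 (siRBM39-08, SD, n = 4 each). There siNT1 gave 152 ± 3.45 and siNT2 147 ± 3.7 CPM, so most of that rise came with siRBM39-06. ZNF438, which rose with RAS, rose by 0.25 with siSF3B1 in DMSO and by 1.35 in 4OHT, a difference of 1.10 (SE 0.099). ZNF521, a factor of early haematopoietic and mesenchymal cells, fell by 0.66 in DMSO and rose by 0.17 in 4OHT, a difference of 0.82 (SE 0.095). ZNF395 had log2 fold changes of -0.15 and -0.99 with siSF3B1, and their difference was -0.84 (SE 0.137). With siRBM39 the other differences were 0.68 for ZNF362, 0.59 for ZNF449 and -0.78 for ZNF251.

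By role, the members that act on RNA, ribosomes or the spindle were split. Of 8 tested, 4 rose and 3 fell with RAS, and 4 rose and 3 fell with siSF3B1 in DMSO. With siSF3B1 in 4OHT 2 rose and 2 fell, and with siRBM39 3 rose and 2 fell in each treatment. Of all genes tested 39% rose and 39.1% fell with RAS, 36.5% and 36.2% with siSF3B1 in DMSO, and 39.4% and 37.6% in 4OHT. With siRBM39 the shares were 23.9% and 22.2% in DMSO and 32.2% and 24.3% in 4OHT. No list was tested against such shares. ZNF622 rose with RAS by 0.83 (SE 0.075), from 28.8 ± 1.18 to 51.1 ± 0.859 cRPKM (SD, n = 8). ZNF830, a protein of the spliceosome-associated XAB2 complex, fell by 0.52 with RAS and rose by 0.64 and 1.19 with siSF3B1. ZNF207, which delivers BUB3 to kinetochores in mitosis, fell in all 4 knockdown comparisons, by 0.26 and 0.35 with siSF3B1 and by 0.15 and 0.18 with siRBM39. ZNF598, an E3 ligase for collided ribosomes, rose by 0.44 with RAS and by 0.36 with siSF3B1 in DMSO.

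Of the transcription and chromatin factors 24 were tested. With siSF3B1 16 rose and 2 fell in DMSO, where 54.5% of members and 36.5% of all genes rose. In 4OHT 21 rose and 2 fell, where 66.3% of members and 39.4% of all genes rose. Their median log2 fold changes were 0.40 and 0.52. With RAS 9 rose and 10 fell, where 39% and 39.1% of all genes did. With siRBM39 2 rose and 3 fell in DMSO (23.9% and 22.2% of all genes), and 11 rose and 2 fell in 4OHT (32.2% and 24.3%). ZNF143, which binds promoters and loop anchors, rose by 1.02 with RAS (SE 0.066) and by 0.52 and 0.73 with siSF3B1. ZNF76, its close relative, rose by 0.61 and 1.16 with siSF3B1. ZNF281, a factor of pluripotent cells, rose by 0.52 and 0.94, and ZNF219 by 1.04 and 0.53. ZNF703 fell by 1.09 with RAS (SE 0.072). Exceptions with siSF3B1 were ZNF521 and ZNF532 in DMSO and ZNF217 and ZNF395 in 4OHT, which fell.

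Among KRAB factors known for retroelements, imprinting or silencing, 7 of 10 could be tested. With RAS 2 rose and 5 fell, where 39% and 39.1% of all genes did. These counts include the row named ZNF10, whose identifier carries another symbol in the annotation, and without it 2 rose and 4 fell. ZNF445, a factor of imprinted regions, fell by 0.76 (SE 0.043) with RAS and rose by 0.13 and 0.46 with siSF3B1. ZNF91, which represses SVA elements, fell by 0.29 with RAS (adjusted p = 0.0203). ZNF202 rose by 0.80 and 0.95 with siSF3B1, in which 2 of the 7 rose and 3 fell in DMSO, and 3 rose and 1 fell in 4OHT. Without the ZNF10 row 2 rose and 2 fell in DMSO, and 2 rose and 1 fell in 4OHT. Of all genes 36.5% rose and 36.2% fell in DMSO, and 39.4% rose and 37.6% fell in 4OHT. With siRBM39 2 rose (ZNF202 and ZNF274) in each treatment, and the ZNF10 row was the one that fell. Of all genes 23.9% rose and 22.2% fell with siRBM39 in DMSO, and 32.2% rose and 24.3% fell in 4OHT.

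The corepressors that KRAB factors use are not members, and 12 of the 13 listed were tested. With RAS 3 rose and 7 fell, where 39% and 39.1% of all genes did. With siSF3B1 2 rose and 5 fell in DMSO (36.5% and 36.2% of all genes), and 6 rose and 4 fell in 4OHT (39.4% and 37.6%). With siRBM39 3 rose and 3 fell in DMSO (23.9% and 22.2%), and 5 rose and 3 fell in 4OHT (32.2% and 24.3%). TRIM28 rose by 0.35 and 0.30 with siSF3B1, and its values were 0.06 with RAS and -0.09 and -0.07 with siRBM39. SETDB1 fell in all 5 comparisons, by 0.45 with RAS, by 0.52 and 0.44 with siSF3B1 and by 0.22 and 0.15 with siRBM39. DNMT1, the maintenance DNA methyltransferase, fell by 1.54 and 1.66 with siSF3B1 and by 0.87 and 1.05 with siRBM39. Its partner UHRF1 fell by 1.23 and 1.56 with siSF3B1.

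The shift with siSF3B1 ran across the classes of members. In 4OHT 68.5% of members with a KRAB-like pattern and 64.4% of those without rose, as did 71.2% of members on chromosome 19 and 63.1% of those elsewhere. The share was 68.9% among members with 10 or more fingers and 63.8% among those with fewer. By level, 77.3% of the upper and 55.3% of the lower part of the members rose, split at their median CPM. These are descriptions, since neighbouring copies are not independent and the differences between classes were not tested.

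Splicing events of the members could be tested in few cases. The filter asks for enough reads in each of 48 libraries and a PSI span of 5 points or more. For introns it also asks for reads balanced between the intron and its junctions. Without the span rule 138 member events remained, and without the balance rule 62. Of 13468 events tested, 50 lay in 22 members (31 exons, 18 introns and 1 alternative 3′ splice site), and 39 of the 50 were called in no comparison with siNT and in no difference of effects. Calls needed a PSI difference of 5 points or more and an adjusted p under 0.05 by limma. In siSF3B1 6 of 31 member exons lost inclusion in DMSO, where 25.7% of all exons tested did, and 7 in 4OHT, where 28.9% did. In 4OHT 2 of 18 member introns were kept more, against 14.6% of all introns. With siRBM39 3 member exons lost inclusion in DMSO (7.01% of all exons) and 2 in 4OHT (8.05%), and 2 introns were kept more in each treatment (2.02% of all introns in both). With RAS 1 exon gained inclusion, against 0.404% of all exons.

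That exon is the 48-base exon of ZNF207, which was called with RAS and with both knockdowns. The RAS difference was 13.6 points (adjusted p = 0.00156), but the libraries of its groups overlapped and it was not called with siNT2 alone. It lies at chr17:30688487-30688534 in GRCh37 and is coding in the 6 annotated transcripts that hold it. PSI was 62.5 to 79.7 (median 74.9) in DMSO siNT and 79.0 to 93.6 (median 86.5) in 4OHT siNT. It was 28.9 to 53.3 (median 38.4) in DMSO siSF3B1 and 28.9 to 43.8 (median 34) in 4OHT siSF3B1. The lowest values came with siRBM39, at 16.2 to 31.3 (median 20.4) in DMSO and 15.8 to 31.4 (median 24.6) in 4OHT. No knockdown library overlapped with its siNT group, as the rule for naming events asks.

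The mean differences for this exon were -32.8 points (adjusted p = 5.38e-09) and -51.2 (9.18e-17) with siSF3B1 in DMSO and 4OHT. With siRBM39 they were -51.2 (4.02e-14) and -62.5 (3.88e-18). Between 87 and 271 reads per library stood behind these values. The effect of siSF3B1 was larger in 4OHT by 18.4 points (adjusted p = 0.0265), against 0.456% of all exons called in that direction. That difference missed the threshold with siNT1 or siNT2 as the only control, and without replicate 2 (adjusted p = 0.16) or replicate 3 (0.0926). Mean PSI was 72.9 in DMSO and 86.6 in 4OHT with siNT, and 40.1 and 35.3 with siSF3B1. The treatments thus differed more in siNT than in siSF3B1. The 76-base exon just upstream in ZNF207 (chr17:30687911-30687986) lost a smaller part, with means of 92.6 ± 4.27 and 91.0 ± 3.31 (SD, n = 8) in siSF3B1 against 99.7 ± 0.714 and 100 in siNT. With siRBM39 its means were 99.7 and 99.8.

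ZNF638 encodes a nuclear matrix protein that binds RNA and silences retroviral DNA. Its 105-base exon (chr2:71655677-71655781) ran from 86.0 to 100 (median 96.2) in DMSO siNT and from 78.7 to 100 (median 94.3) in 4OHT siNT. With siSF3B1 it ran from 43.6 to 56.6 (median 47.5) in DMSO and from 23.6 to 50.5 (median 36.9) in 4OHT. The groups were apart, as the rule for naming events asks. The differences were -45.8 (adjusted p = 1.23e-08) and -55.1 points (3.59e-09), on 39 to 81 reads per library. With siRBM39 every library lay at 95.2 or above. The exon is coding in 3 of 6 transcripts that hold it.

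Other called member exons moved by smaller amounts. The 48-base exon of ZNF259 (chr11:116655815-116655862, minus strand) was at 100 in every siNT and siRBM39 library and at means of 91.7 ± 3.30 and 94.3 ± 3.71 with siSF3B1. A 101-base exon of ZNF664 went from 13.7 ± 5.45 in DMSO siNT to 4.60 ± 2.49 with siSF3B1 and 3.12 ± 1.57 with siRBM39, and from 12.6 ± 5.36 in 4OHT siNT to 3.69 ± 1.90 and 4.72 ± 3.45. Its 93-base exon (chr12:124472593-124472685), in transcripts where it is not coding, went from 88.8 ± 6.61 to 76.3 ± 7.99 with siSF3B1 in 4OHT. In ZNF384 a 93-base exon (chr12:6786333-6786425) went from 9.78 ± 6.05 in DMSO siNT to 2.46 ± 2.34 with siSF3B1 and 1.83 ± 2.22 with siRBM39. A 129-base exon of ZNF480 (chr19:52819087-52819215) went from 97.2 ± 4.49 to 91.4 ± 7.62 with siSF3B1 in 4OHT. Libraries overlapped for the exons of ZNF480 and ZNF384 and the 93-base exon of ZNF664. For its 101-base exon they overlapped with siSF3B1 in DMSO and siRBM39 in 4OHT. The ZNF384 exon was not called in 4OHT, nor with siSF3B1-13 alone in DMSO. In 4OHT the ZNF480 exon was not called with siSF3B1-13 alone. The ZNF259 exon and the 93-base ZNF664 exon were not called there with siSF3B1-16 alone.

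Retained introns were called in ZNF740, ZNF598 and ZNF266. The 313-base intron of ZNF740 (chr12:53579862-53580174) was kept in 0 to 3.77% of transcripts in DMSO siNT (median 1.25) and 6.38 to 17.4% in DMSO siRBM39 (median 9.82), a difference of 9.28 points (adjusted p = 3.95e-07). In 4OHT it was 0 to 4.47% (median 2.10) against 4.51 to 15.7% (median 8.33), a difference of 6.55 points (adjusted p = 0.000464). A 258-base intron of ZNF598 (chr16:2052734-2052991) rose from 7.86 ± 4.74 to 21.9 ± 8.24% with siRBM39 in DMSO, and in 4OHT from 8.52 ± 5.37 to 17.8 ± 4.54% with siRBM39 and 19.2 ± 5.64% with siSF3B1. These ZNF598 groups overlapped, on 17 to 53 reads per library. A 90-base intron of ZNF266 rose from 0.162 ± 0.460 to 11.6 ± 5.04% with siSF3B1 in 4OHT (adjusted p = 4.52e-13). In DMSO the values were 1.09 ± 1.23% with siNT and 3.26 ± 2.71% with siSF3B1. The difference of these effects was 9.25 points (adjusted p = 0.00454), against 0.114% of all introns called in that direction, and it missed the threshold with siNT1 (0.0676) or siNT2 (0.173) as the only control.

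For siRBM39 the count of member events that differed between treatments was 0 by limma, with 1 of 50 at an unadjusted p under 0.05.

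Since so few member events passed the filter, reads were also pooled over the 8 libraries of a group. This gave a PSI for 665 exons in 165 members and 356 introns in 130 members with at least 50 pooled reads in each group. The balance rule for introns was not applied to these. Pooling was chosen after the values per library were seen and gives a description with no test. The members had fewer reads than other genes, with a median lowest group of 102 against 195 reads for exons and 94 against 160 for introns, so differences by counting error are more frequent among them.

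With siSF3B1 pooled PSI was lower by at least 10 points in 11.6% of member exons in DMSO and 13.8% in 4OHT, against 6.7% and 8.38% of all exons. Introns were kept more by at least 10 points in 12.1% of member introns in either treatment, against 6.22% and 7.81% of all introns. With siRBM39 the shares were 4.21% and 4.36% of member exons, against 2.31% and 2.64%, and 6.46% and 3.93% of member introns, against 2.35% and 2.5%. The RAS comparison had lower shares, with 2.26% of member exons lower against 0.565% of all, and 2.25% of member introns higher against 0.393% of all. Taken as a ratio to all events, this excess was larger than that with siSF3B1. It ran in the other direction too, with 1.2% of member exons higher against 0.374% of all and 0.843% of member introns lower against 0.476%. The mean differences over member exons were -3.56 and -4.24 points with siSF3B1, against -2.10 and -2.63 over all exons, and -0.06 with RAS for both. Over introns they were 3.37 and 3.78 with siSF3B1, against 1.99 and 2.60 over all introns. With siRBM39 they were 1.36 in DMSO and 0.78 in 4OHT, against 0.77 and 0.84, so in 4OHT the mean of the member introns was no higher than that of all.

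Of the 35 members named above for a change in level by the rule, 21 had such events, 151 in number. Of these events 18, in 10 members, moved by at least 20 points in any of the knockdown comparisons. The share of all genes at this cut was not taken, so these counts cannot be set against other genes. ZNF263, which rose with siSF3B1, lost part of its 117-base coding exon (chr16:3338454-3338570), from 97.5% and 95.9% in DMSO and 4OHT siNT to 66.6% and 62.9% with siSF3B1. The libraries ran from 89.3 to 100 in DMSO siNT and from 52.2 to 81.5 in DMSO siSF3B1, without overlap. Its 127-base exon went from 49.0% and 56.6% to 16.8% and 18.2%. ZNF841 likewise went from 83.8% and 79.0% to 49.2% and 45.5% for a 129-base exon and from 89.1% and 86.4% to 54.0% and 53.5% for a 127-base exon. With siRBM39, with which this gene was named for its rise in 4OHT, the 129-base exon was at 77.7% in DMSO and 67.1% in 4OHT, and the 127-base exon at 77.7% and 65.6%. These siRBM39 libraries overlapped with those of siNT.

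ZNF692 and ZNF521 also lost exons with siSF3B1. The 135-base exon of ZNF692 went from 90.1% and 91.1% to 62.3% and 66.8%, and its 100-base exon from 100% in both to 77.4% and 79.0%. The libraries of the 135-base exon overlapped in DMSO. In ZNF521 the 3353-base exon went from 100% in both to 61.5% and 74.1%, on 63 to 155 pooled reads, and in 4OHT its libraries overlapped. In ZNF259 a 162-base exon went from 99.1% to 76.4% in DMSO and from 99.6% to 86.2% in 4OHT, where the libraries overlapped.

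The 231-base intron of ZNF335 (chr20:44578208-44578438), a gene that rose with siSF3B1, was kept in 11.4% and 7.84% of transcripts in siNT and 57.3% and 64.8% in siSF3B1. The highest siNT library was at 31.7% and the lowest siSF3B1 library at 46.2%. With siRBM39 it was at 14.3% and 12.9%. The gene count of ZNF335 therefore rose while more of its transcripts kept this intron. In ZNF248, which fell, a 97-base intron went from 20.6% and 20.5% to 45% and 48.6%, with overlap of the libraries.

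With siRBM39 the 187-base exon of ZNF451 (chr6:57018659-57018845), coding in both transcripts that hold it, went from 86.7% and 90.1% to 44.6% and 42.5%, with ranges that overlapped in 4OHT. With siSF3B1 it was at 77.2% and 78.5%. A 374-base intron of ZNF251, the member that fell most, was kept in 69.5% and 65.7% of transcripts in siNT and 86.4% and 86.7% in siRBM39. A 919-base intron of ZNF561, which rose, went from 32.6% and 38% to 58.4% and 57%. The libraries of both introns overlapped between groups. Whether these events bear on the level of each gene was not tested.

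**Figure D4:**
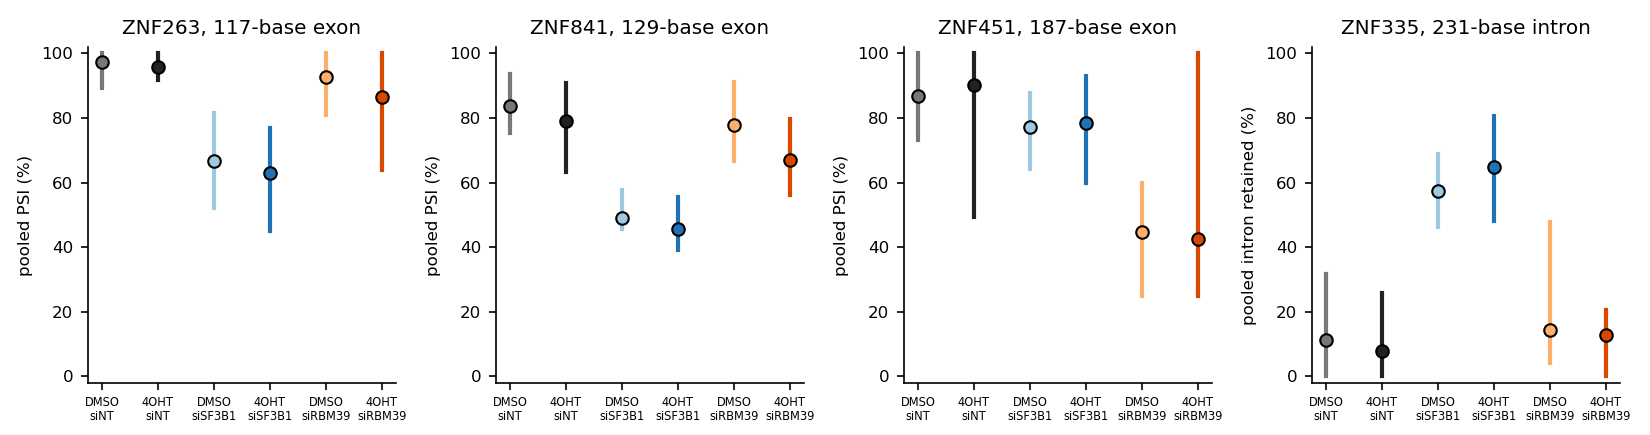
Pooled PSI (dots) of 3 exons and pooled retention of 1 intron in members that changed in level, by group, with lines from the lowest to the highest of 8 libraries. The ZNF263 and ZNF841 exons fall and the ZNF335 intron rises with siSF3B1 (57.3% and 64.8%), and the ZNF451 exon falls with siRBM39 (44.6% and 42.5%).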

How the data were processed

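RNA-seq was analysed from 48 libraries, grouped by their labels. Alignment and quantification were run by the authors in vast-tools (version 2) on a VAST-DB annotation labelled hg19. The authors deposited raw counts per gene and cRPKM, an RPKM per mappable length used here only to compare levels between genes. The deposited event table holds PSI in percent and the reads behind each value. Event coordinates in that table lie in GRCh38, so events were matched by gene, length and neighbouring lengths to the GRCh37 annotation, from which positions and sequences come. Strand use in counting is not given in the sources used here, so reads of antisense or near-identical genes cannot be told apart. The deposited normalised CPM table was not used. 1 gene of the leukocyte marker list, and the list's sum, are not reported here.

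Counts of 9991 genes with at least 10000 in total were tested in R 4.3.3 with edgeR 4.0.16 (glmQLFit, TMM, 6 group means), with Benjamini-Hochberg adjustment and calls at an adjusted p under 0.05. The edgeR and limma fits hold no term for the siRNA. Their SEs and p-values count the 8 libraries of a group as independent, though they come from 2 siRNAs. TMM assumes that most genes do not change. CPM uses the TMM-scaled totals. Events (13468) scored VLOW or better in all libraries, spanning 5 PSI points or more and, for introns, with a balance p not under 0.05, were tested with limma 3.58.1 on the logit of 0.01 + 0.98 × PSI as a fraction. All tests were two-sided. The 264 members and the gene lists (RNA and spindle, transcription and chromatin, KRAB, corepressors, cell type markers) were chosen with earlier results of these data known. Named members are, per comparison with siNT, the 5 largest rises and 5 largest falls among those called without overlap of libraries, the 2 largest per direction for each difference of effects, and examples from the lists. Named events are the 2 largest per type and comparison without overlap. Other called events and those from pooled reads were chosen after their values were seen. Replicates of a siRNA differed by more than sampling noise (lowest ratio of chi-square to its degrees of freedom, 2). The edgeR and limma fits were tested on simulated data, for the comparison of DMSO siSF3B1 with DMSO siNT only. Other procedures were not. Alternatives were limma-voom, DESeq2 1.42.0, other filters, single siRNAs, a replicate block and leaving out replicates.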

Additional observations from a re-analysis of the deposited data

Results flagged for a closer look

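Of 115 groups of 8 values examined, 12 held a library set apart from the others by Dixon's criterion, which chance alone meets in about 1 in 20 groups. Replicate 4 of siRBM39-08 in 4OHT accounted for 6 of them. Its mean log2(CPM + 0.5) over the members was 3.85 (next 3.99). It was highest for ZNF557 (40.1 CPM, next 31.2), ZNF362 (26.8, next 19.5) and ZNF580 (83.7, next 35.8), and lowest for ZNF655 (3.83, next 7.01) and ZNF451 (10.7, next 16.6).

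The other 6 came from 6 libraries. ZNF74 reached 40.1 CPM in replicate 1 of siSF3B1-13 in 4OHT (next 36.8). ZNF792 reached 4.92 CPM in replicate 2 of siNT2 in DMSO (next 4.23), and ZNF844 was at 9.25 CPM in replicate 1 of siNT2 in DMSO (next 10.5). ZNF862 reached 18.9 CPM in replicate 2 of siNT1 in 4OHT (next 17.1). The 90-base intron of ZNF266 was kept at 1.3% in replicate 3 of siNT2 in 4OHT and at 0% in the other 7 libraries. The 101-base exon of ZNF664 had a PSI of 6.54 in replicate 2 of siRBM39-06 in DMSO (next 3.85).

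Knockdown effects that differed between 4OHT and DMSO were listed from the test of the difference itself. For siSF3B1 the log2 differences were 1.10 in ZNF438, 0.82 in ZNF521, -1.58 in ZNF469 and -0.84 in ZNF395. The ZNF207 48-base exon differed by -18.42 points (adjusted p = 0.0265) and the ZNF266 intron by 9.25 points (adjusted p = 0.00454). For siRBM39 they were 0.68 in ZNF362, 0.59 in ZNF449, -1.23 in ZNF469 and -0.78 in ZNF251.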

How the results depend on the processing

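All 806 values of named members under the alternatives kept their direction and their side of the threshold. Of 163 values of named events 156 did, and 7 of the differences of effects in ZNF207 and ZNF266 missed the threshold with a single siNT siRNA, with siSF3B1-13 alone or without replicate 2 or 3. Counts of members called were within 1.5 times of those reported under limma-voom, DESeq2, other size factors and other filters. They moved by more when single siRNAs were used or libraries left out, in both directions. For siRBM39 in DMSO the 108 members called became 66 with siNT1, 64 with siNT2 and 149 with siRBM39-06 alone (74 to 127 without a replicate). The 113 members with a differing siSF3B1 effect became 68 with siSF3B1-16, 68 with siNT1 and 75 with siNT2 alone (73 to 113 without a replicate). The 26 with a differing siRBM39 effect became 78 with siRBM39-06, 43 with siRBM39-08, 12 with siNT1 and 14 with siNT2 alone, 56 without replicate 4 of siRBM39-08 in 4OHT, and 11 to 46 without a replicate. With siRBM39-08 alone their median difference turned to -0.01.

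Member events called depended on the filters. With a coverage score of at least LOW they numbered 2 (siSF3B1) and 2 (siRBM39) in DMSO and 3 and 2 in 4OHT, in place of 6, 5, 9 and 4, as 16 of the 50 remained. With PSI kept from 1 to 99, which left 3 events, they numbered 2 and 2 in DMSO and 2 for siSF3B1 in 4OHT. Without the balance filter siSF3B1 gave 12 in DMSO and 17 in 4OHT. The 1 event called with RAS became 0 with siNT2 alone. The 2 differing siSF3B1 effects became 1 with PSI from 1 to 99 or siSF3B1-13 alone, 0 with siNT1 or siNT2 alone, and 1 to 2 without a replicate. Apart from fewer events or libraries tested, the cause was not tested.

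With the replicate number as a block the members called were 194 with RAS (195 without the block), 195 and 216 with siSF3B1, and 107 and 140 with siRBM39, so the block moved no count by over 1.5 times. The labels do not say whether the numbers pair the samples. Of 264 same-number pairs 84 correlated above 0.1 (median 0.01, range -0.91 to 0.81), and 15 of 48 libraries correlated best with their own number. Such correlations cannot decide whether libraries of a number shared a culture or batch. Depth limits the events, with as few as 12 reads behind a PSI in one library.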

Other observations

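ZNF862 was called in opposite directions with the knockdowns in DMSO, with log2 fold changes of -0.90 for siSF3B1 (SE 0.080) and 0.49 for siRBM39 (SE 0.078), and the direct difference between them was -1.38 (edgeR, adjusted p = 4.49e-20), without overlap of the libraries. In 4OHT its value with siRBM39 was -0.02, and the siRBM39 effects differed by -0.51 between treatments (adjusted p = 0.000961). The contrast between the knockdowns was noted after the values were seen.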
